A study of Mus musculus with 8 samples.

Results

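Of the CpG calls made on chromosomes 1 to 19 in mouse embryonic stem cells, those that were the only call on their sequencing read are described here. The lines of each read were counted and reads with exactly 1 line were kept, whatever the call was. This left 375676 calls out of 1812708 on these chromosomes (20.7%) and out of 1849087 in all, at 366057 distinct positions, of which 7437 were called in 2 or more libraries. Such a call is named isolated, and calls on reads with 2 or more are named other-read calls. The cells lack TET1, TET2 and TET3 through a triple knockout and carry a doxycycline-inducible catalytic domain of mouse TET3, marked by a Cherry reporter behind an IRES element. Untreated cells gave 3 libraries, called 0 h A, B and C. Cells kept in 1 µM doxycycline gave 2 libraries at 6 h, A and B, and 3 at 12 h, again A, B and C. All 8 libraries share the knockout, the transgene and medium with 50 µg/ml ascorbate, and they come from 1 line. The labels do not say whether libraries of a group were separate cultures, so p-values measure only the spread between these libraries, and that may be technical. The files hold DNA calls and no expression, so the cell type was not checked against marker genes.

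TET enzymes are dioxygenases that oxidise 5-methylcytosine to 5-hydroxymethylcytosine (5hmC) and further, and they depend on iron and 2-oxoglutarate, with ascorbate as a helper. Most mammalian CpGs are sparse and methylated, while CpG islands, the dense clusters at many promoters, are largely unmethylated and so offer little substrate. The catalytic domain used here is the part of TET3 without its amino-terminal CXXC domain, a zinc finger that binds unmethylated CpGs. In the assay, APOBEC-coupled epigenetic sequencing (ACE-seq), 5hmC is shielded by glucosylation and an APOBEC enzyme deaminates the other cytosines. A CpG that stays undeaminated is read as 5hmC plus background. A read with a lone call covers CpG-poor sequence or is short; the files give no read lengths, so the sequence and the length of the read cannot be told apart.

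Promoters are the places where the reference used here gives sequence, and examples of CpG-poor and CpG-rich ones show what such reads cover. Their difference in CpG number was set by the choice. Below are the 250 bases upstream of the RefSeq start (GRCm38.p6, 5′ to 3′ on the gene's strand), with every CpG in capitals. The first 3 are the protein-coding promoters with at most 3 CpGs in these bases that held the most isolated calls at 12 h, and the last 2 are those with the most calls at 12 h on reads of 11 or more CpGs, ties in alphabetical order. The rule was chosen after values were seen.
Cnr2, chr4:135894939-135895188, plus strand: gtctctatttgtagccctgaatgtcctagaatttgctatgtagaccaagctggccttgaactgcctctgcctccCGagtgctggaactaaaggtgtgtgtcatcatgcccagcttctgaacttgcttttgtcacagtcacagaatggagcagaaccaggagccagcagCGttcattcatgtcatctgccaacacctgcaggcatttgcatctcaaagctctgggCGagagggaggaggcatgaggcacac
Ikzf1, chr11:11689927-11690176, plus strand: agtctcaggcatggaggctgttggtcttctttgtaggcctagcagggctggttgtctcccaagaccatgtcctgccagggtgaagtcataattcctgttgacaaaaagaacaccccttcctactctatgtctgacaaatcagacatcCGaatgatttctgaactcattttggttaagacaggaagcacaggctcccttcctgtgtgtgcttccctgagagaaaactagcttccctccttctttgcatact
Nxpe4, chr9:48361791-48362040, plus strand: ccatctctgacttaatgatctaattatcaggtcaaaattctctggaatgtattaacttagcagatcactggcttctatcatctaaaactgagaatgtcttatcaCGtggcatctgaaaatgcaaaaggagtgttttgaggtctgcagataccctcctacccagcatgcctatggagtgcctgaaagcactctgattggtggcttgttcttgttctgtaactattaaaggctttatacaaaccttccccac
Ccdc171, chr4:83525326-83525575, plus strand: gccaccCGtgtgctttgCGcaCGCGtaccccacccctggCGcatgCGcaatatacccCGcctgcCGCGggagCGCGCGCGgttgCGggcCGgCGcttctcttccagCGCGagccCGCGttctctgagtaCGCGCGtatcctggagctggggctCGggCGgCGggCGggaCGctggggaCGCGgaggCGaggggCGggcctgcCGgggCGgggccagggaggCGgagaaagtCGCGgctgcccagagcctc
Galnt9, chr5:110544105-110544354, plus strand: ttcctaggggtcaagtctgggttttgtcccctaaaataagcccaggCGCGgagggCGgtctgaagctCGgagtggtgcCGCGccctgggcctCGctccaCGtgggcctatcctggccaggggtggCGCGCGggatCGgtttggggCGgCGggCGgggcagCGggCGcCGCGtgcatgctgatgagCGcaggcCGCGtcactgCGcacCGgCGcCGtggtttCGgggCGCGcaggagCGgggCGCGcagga
In Cnr2, which encodes the cannabinoid receptor CB2, 3 CpGs stood in these bases and 0 of 3 isolated calls at 12 h were undeaminated. Ikzf1, the gene of the lymphoid transcription factor Ikaros, had 1 CpG and 1 of 2 calls undeaminated. Nxpe4 had 1 CpG and 0 of 2. The window of Ccdc171 held 37 CpGs, and 0 of 44 calls on its CpG-rich reads, which numbered 2, were undeaminated. That of Galnt9, a gene of an O-glycosylation enzyme, held 32 CpGs with 7 of 43, also on 2 reads. Calls on the same read are not independent, so these 2 promoters were no better covered than the first 3. No single promoter carried enough isolated calls for a level of its own, so levels below are sums over classes of sequence.

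Isolated calls numbered 31375, 18187 and 20874 in the untreated libraries A, B and C, 15444 and 56357 in the 6 h libraries and 93262, 100080 and 40097 in the 12 h libraries. They made up 19.5 to 21.3% of the calls of a library, and 44.8 to 46.9% of reads had 1 call. At most 0.490% of isolated calls in a library repeated the position and letter of another one. Isolated calls lay away from genes more often than others: 46.2% were in protein-coding gene bodies and 45.2% intergenic, against 57.0 and 34.8% of other-read calls. Their median distance to the nearest end of a protein-coding gene was 33.4 kb, against 16.9 kb, and 3.25% lay within 1 kb of such an end, against 13.6%. Seen from the sequence, isolated calls were 3.33% of all calls within 1 kb of a gene start, 16.1% within 1 kb of a gene end and 38.5% inside genes over 500 kb from either end. Windows of stacked calls, those of 10 kb with 200 or more calls of any kind, held 0.104% of isolated calls, against 2.21% of other-read calls. A CpG-rich read adds more calls to a window, so this count favours other-read calls. Repeated sequence as such was not identified.

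The level, the percentage of calls that were undeaminated, rose at isolated CpGs at each time point of induction. In untreated cells it was 0.848% in A, 1.36% in B and 1.28% in C, a mean of 1.16% ± 0.276 (SD, n = 3). After 6 h it was 6.61% in A and 6.28% in B (6.45% ± 0.231, SD, n = 2), and after 12 h 23.2% in A, 24.1% in B and 27.9% in C (25.0% ± 2.51, SD, n = 3). The 3 times did not overlap, and 12 h library C stood above A and B. The 95% Wilson intervals of the 12 h libraries, 22.9 to 23.5%, 23.8 to 24.3% and 27.5 to 28.3%, do not touch, so these libraries differed by more than counting error. The difference of 12 h from 0 h was 23.9 percentage points (two-sided exact permutation p = 0.1, the smallest that 3 against 3 libraries allow). That of 6 h from 0 h was 5.28 points and that of 12 h from 6 h 18.6 points (both exact permutation p = 0.2, the smallest for 2 against 3). All 3 tests have an adjusted p of 0.2 over the 4 tests of the level. Across the 8 libraries the level rose with time (Pearson's r = 0.957 with an exact permutation p of 0.00357 over 560 arrangements, adjusted p 0.0143, and Spearman's rho = 0.945 with the same exact p of 0.00357). Leaving out any 2 of the 6 libraries farthest from the median time, those of 0 h and 12 h, gave r from 0.924 to 0.957 in the 15 cases. Within the 3 sequencing runs, each of which held all libraries, 12 h exceeded 0 h by 23.3, 23.8 and 24.0 points.

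**Figure D1:**
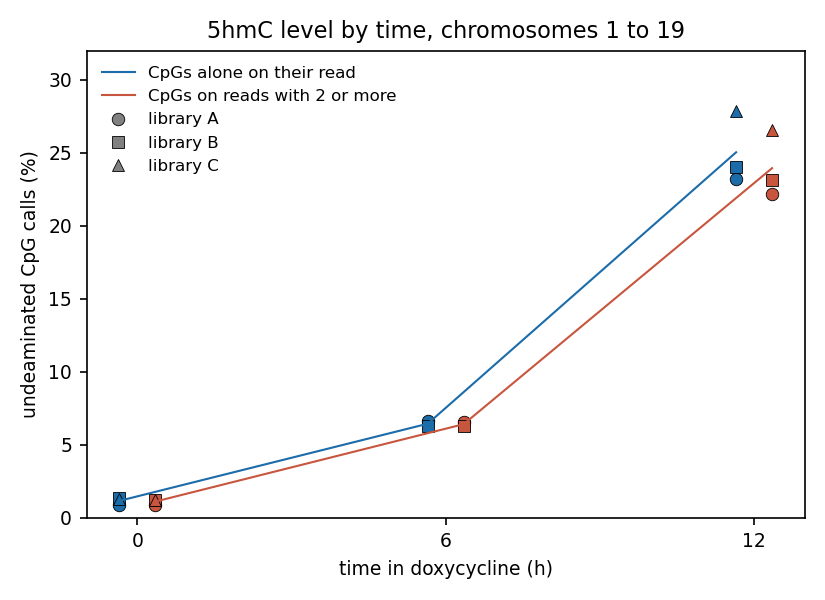
Undeaminated CpG calls (percent, vertical axis) against time in doxycycline (h) on chromosomes 1 to 19, for isolated calls and other-read calls; each symbol is a library and lines join group means. Isolated CpGs reach 23.2 to 27.9% at 12 h from 0.848 to 1.36% at 0 h, and lie slightly above other-read calls at 12 h.

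At 12 h isolated CpGs stood slightly above CpGs that share a read. Other-read calls stood at 1.11% ± 0.185 (SD, n = 3) at 0 h, 6.42% ± 0.212 (n = 2) at 6 h and 24.0% ± 2.29 (n = 3) at 12 h. Within the 12 h libraries the isolated level was higher by 1.02 points in A, 0.887 in B and 1.35 in C. In untreated libraries the difference was -0.0542, 0.162 and 0.0399 points, and at 6 h 0.0431 and 0.0169. The groups of 0 h and 12 h do not overlap (exact permutation p = 0.1, the smallest possible). By class the difference ran from a large excess near gene starts to deficits far from genes, as given below.

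All sequence classes rose. In 48 of 48 classes (4 compartments, 18 distance classes, 7 gene-length classes and 19 chromosomes) every 12 h library lay above every 0 h library (100%), which reads as the rise of the whole library. To compare classes, the level of a class minus the level over all isolated CpGs of the same library, its deviation, was fitted with limma over all 8 libraries. A positive change in deviation from 0 h to 12 h means a larger rise in percentage points than in the isolated CpGs as a whole. Since the contrasts of 6 h and 12 h share the untreated libraries, their values are given side by side only.

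Gene bodies rose more than intergenic sequence. Isolated CpGs in protein-coding gene bodies went from 0.789, 1.32 and 1.35% in the untreated libraries to 6.84 and 6.62% at 6 h and 24.3, 25.4 and 28.9% at 12 h. Intergenic CpGs went from 0.925, 1.36 and 1.20% to 6.29 and 6.07% and then 22.1, 22.9 and 26.9%. Gene bodies were above intergenic sequence in each 12 h library, by 2.21 points in A, 2.47 in B and 1.96 in C, and by 0.553 and 0.550 points at 6 h, against -0.136, -0.0348 and 0.150 points at 0 h (12 h against 0 h, exact permutation p = 0.1). The change in deviation at 12 h was 1.21 ± 0.104 points (SE, limma adjusted p = 8.67e-10) for gene bodies and -1.12 ± 0.105 (limma adjusted p = 2.02e-09) for intergenic sequence. At 6 h the same changes were 0.336 points (limma adjusted p = 0.0188) and -0.261 points (limma adjusted p = 0.0485). Gene bodies and intergenic sequence hold 46.2 and 45.2% of isolated calls and are each measured against the whole. Their deviations therefore nearly mirror each other and are 1 contrast seen from 2 sides. The fit treats them as independent, so these limma p-values are too small.

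Bodies of genes for long noncoding RNA (lncRNA) reached 24.7% ± 2.51 (SD, n = 3) at 12 h and did not pass the test (-0.415 ± 0.255 points, limma adjusted p = 0.119). The bodies of other kinds of gene, with 2526 calls at 12 h, stood at 21.5, 20.4 and 28.1% (-1.88 ± 0.675 points, limma adjusted p = 0.0151). That last call was lost in limma without 12 h library B (-0.848 points, limma adjusted p = 0.321), without weights and within run 53. In all, 3 of 4 compartments passed (75.0%), among them the mirrored pair of protein-coding bodies and intergenic sequence. For 6 h against 0 h and 12 h against 6 h only that pair passed (2 of 4 each, 50.0%). Within the 3 runs the change was 1.54, 1.24 and 1.15 points for protein-coding bodies and -1.26, -1.12 and -1.10 for intergenic sequence.

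These calls rest on the scale of percentage points. On the log-odds scale, which weighs the rise relative to a level at 0 h set by few undeaminated calls, the change for protein-coding bodies was 0.0760 (limma adjusted p = 0.236) and 0 of 4 compartments, 0 of 18 distance classes and 0 of 7 length classes passed; a quasi-binomial model gave 0 in each as well. Untreated cells had 781 undeaminated isolated calls in all. Taking the 12 h libraries alone on the log-odds scale, an alternative added after seeing the data, protein-coding bodies lay above and intergenic sequence below their library (0.0633 and -0.0604, both limma adjusted p = 0.000111).

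By distance to the nearest end of a protein-coding gene, at either its start or its end, levels were lowest far away and had no steady order close by. Inside genes the 12 h level was 26.1% ± 2.24 (SD, n = 3) within 1 kb, 25.9% ± 2.46 at 1 to 2 kb, 26.8% ± 2.53 at 2 to 5 kb, 27.0% ± 2.39 at 5 to 20 kb, 26.9% ± 2.67 at 20 to 50 kb, 25.4% ± 2.13 at 50 to 100 kb, 25.0% ± 2.82 at 100 to 200 kb, 23.1% ± 2.23 at 200 to 500 kb and 22.1% ± 0.753 beyond 500 kb. Outside genes it was 26.7% ± 3.97 within 1 kb, 25.3% ± 1.29 at 1 to 2 kb, 25.9% ± 2.36 at 2 to 5 kb, 25.0% ± 2.47 at 5 to 20 kb, 24.4% ± 3.00 at 20 to 50 kb, 24.4% ± 2.87 at 50 to 100 kb, 23.2% ± 2.00 at 100 to 200 kb, 22.9% ± 2.70 at 200 to 500 kb and 21.4% ± 3.23 beyond 500 kb. Neighbouring classes lay within their SD over libraries, much of which is the high level of library C, the highest of the 12 h libraries in 47 of the 48 classes. Of the 18 classes 9 passed (50.0%), 4 above and 5 below the library.

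Above were CpGs inside genes at 5 to 20 kb (1.95 ± 0.250 points, limma adjusted p = 1.24e-05), 20 to 50 kb (1.93 ± 0.275, adjusted p = 2.94e-05) and 2 to 5 kb (1.48 ± 0.382, adjusted p = 0.00460), and CpGs outside genes within 1 kb (1.76 ± 0.669, adjusted p = 0.0382). Below were CpGs outside genes beyond 500 kb, with 18.4, 20.9 and 24.8% at 12 h from 1.52, 1.54 and 1.59% at 0 h (-4.27 ± 0.468 points, limma adjusted p = 3.69e-06). Their level was the lowest of the 18 classes in A and B, and in C the inside of genes beyond 500 kb, with 980 calls over the 12 h libraries, was lower at 22.2%. Also below were the outside classes at 200 to 500 kb (-1.99 ± 0.398), 100 to 200 kb (-1.58 ± 0.364) and 20 to 50 kb (-1.03 ± 0.376) and the inside class at 200 to 500 kb (-1.67 ± 0.481), with limma adjusted p from 0.000755 to 0.0357. The outside class within 1 kb did not pass without any 1 of 0 h A, B and C or 12 h B and C, with limma adjusted p from 0.0537 to 0.148. The outside class at 20 to 50 kb did not pass without any 1 of 0 h A and B or 12 h B and C, with limma adjusted p from 0.0542 to 0.434, and changed by -0.465 points without 12 h B. The inside class at 200 to 500 kb did not pass without 12 h A (limma adjusted p = 0.0675). Within run 52 0 distance classes passed, and the changes beyond 500 kb were -3.16, -4.09 and -4.72 points in runs 52, 53 and 54. At 6 h 1 of 18 classes passed (5.56%): CpGs inside genes at 1 to 2 kb stood at 6.10 and 10.5% (3.24 ± 0.838 points, limma adjusted p = 0.0282). For 12 h against 6 h 5 of 18 passed (27.8%).

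**Figure D2:**
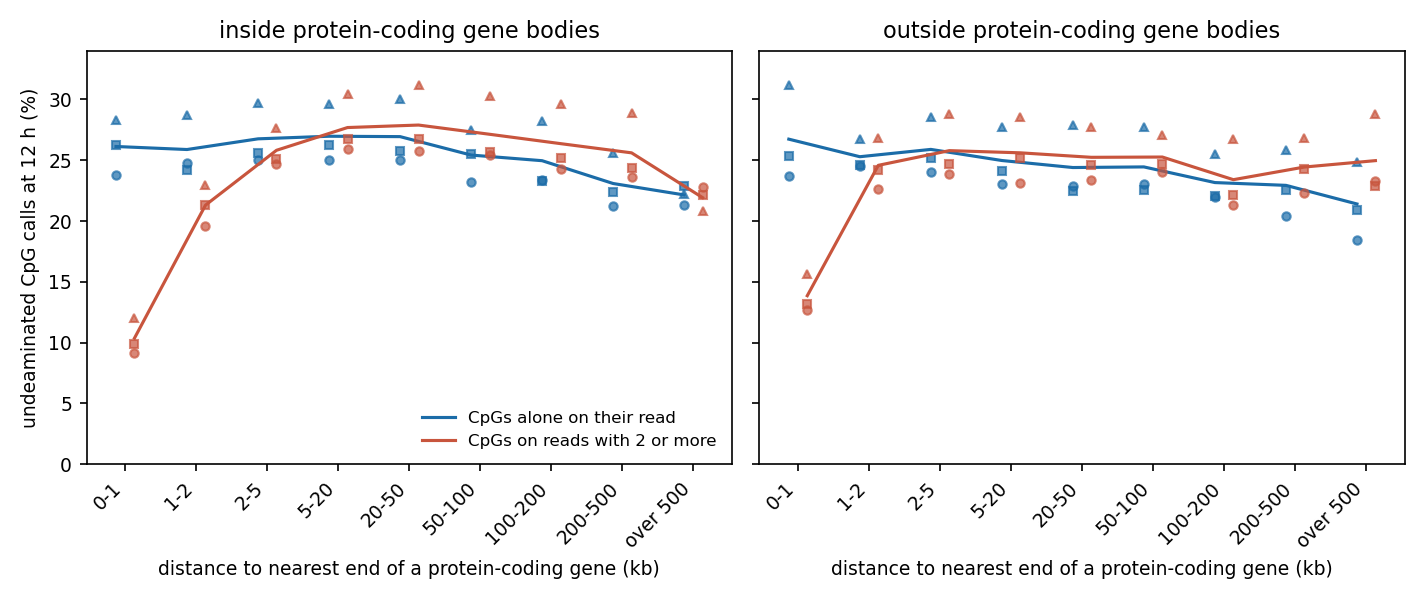
Undeaminated CpG calls at 12 h (percent, vertical axis) by distance to the nearest end of a protein-coding gene (kb), inside gene bodies at left and outside at right; symbols are libraries A (circle), B (square) and C (triangle) and lines join means. Inside genes isolated calls lie between 25.9 and 27.0% up to 50 kb and at 22.1% beyond 500 kb, and outside they go from 26.7% within 1 kb to 21.4% beyond 500 kb, while other-read calls start at 10.4 and 13.9% within 1 kb.

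CpGs in long genes reached lower levels than those in genes of middle length. A CpG more than 500 kb from both ends of its gene lies in a gene over 1000 kb. The length classes thus share calls with the inside distance classes, and length and distance were not separated. By the length of the longest protein-coding gene over the CpG, the 12 h level was 26.6% ± 2.86 (SD, n = 3) under 20 kb, 26.9% ± 2.09 at 20 to 50 kb, 27.6% ± 2.73 at 50 to 100 kb, 27.1% ± 2.40 at 100 to 200 kb, 25.3% ± 2.37 at 200 to 500 kb, 23.5% ± 2.52 at 500 to 1000 kb and 22.5% ± 1.58 over 1000 kb. Genes of 50 to 100 kb stood above genes over 1000 kb in every 12 h library, by 4.77 points in A, 4.03 in B and 6.71 in C, against 0.326, -0.231 and -1.31 points at 0 h (exact permutation p = 0.1). All 7 classes passed (100%), 5 above and 2 below, but 0 passed within run 52, 3 within run 53 and 4 with median centring. The deviation is taken from all isolated CpGs, intergenic ones included. It therefore also carries the change of protein-coding bodies as a whole, 1.21 points. On the log-odds scale and in the quasi-binomial model the sign turned under 20 kb (-0.0645 and -0.0413), at 100 to 200 kb (-0.0917 and -0.0781) and at 500 to 1000 kb (0.135 and 0.180), and in the latter model at 20 to 50 kb (-0.00410). Under 20 kb it also turned with median centring (-0.0233). The largest changes in deviation were 2.62 ± 0.315 points at 50 to 100 kb (limma adjusted p = 5.77e-09) and -2.32 ± 0.617 points over 1000 kb (limma adjusted p = 0.00110). Genes of 500 to 1000 kb changed by -1.30 ± 0.454 points (limma adjusted p = 0.00805), which did not pass without 12 h A (-1.01 points, adjusted p = 0.112). The change at 200 to 500 kb was 0.602 ± 0.289 points (limma adjusted p = 0.0446) and turned to -0.746 when classes were centred on their median. It did not pass without any 1 of 0 h B and 12 h A, B and C, with limma adjusted p from 0.0559 to 0.409, and was 0.328 points without 12 h B. Against 6 h 4 of 7 classes passed at 12 h (57.1%). At 6 h 1 of 7 passed (14.3%), genes of 50 to 100 kb with 6.70 and 7.63% (1.19 ± 0.323 points, limma adjusted p = 0.00558).

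**Figure D3:**
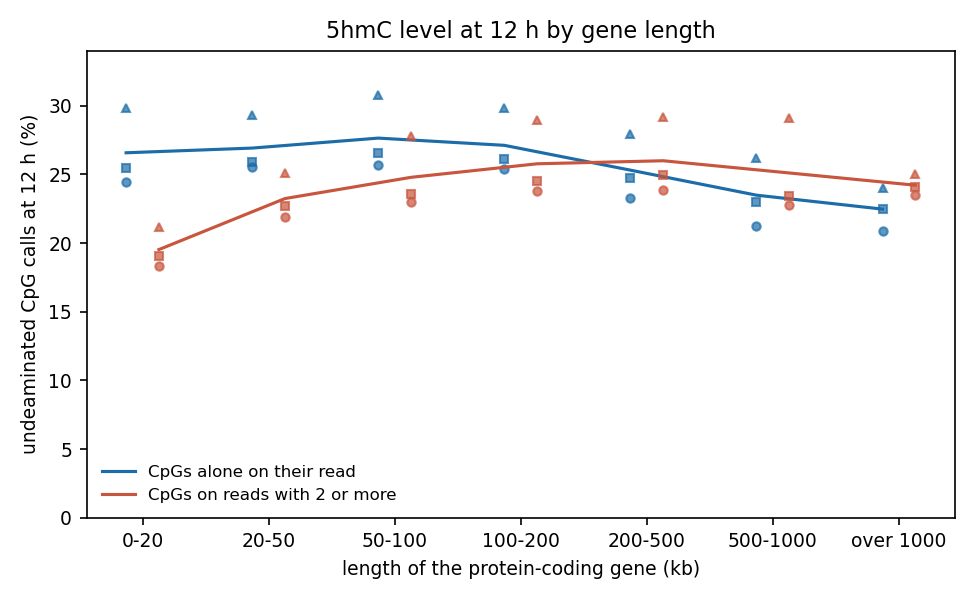
Undeaminated CpG calls at 12 h (percent, vertical axis) in protein-coding gene bodies by gene length (kb), for isolated and other-read calls; symbols are libraries A (circle), B (square) and C (triangle) and lines join means. Isolated calls go from 27.6% at 50 to 100 kb to 22.5% over 1000 kb, and other-read calls rise from 19.5% under 20 kb to 26.0% at 200 to 500 kb.

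At 12 h isolated CpGs stood higher at the ends of genes than at their starts. With strand from the promoter table, available for 16457 of 20665 protein-coding genes, starts and ends could be separated. A call within 1 kb of both a start and an end was counted at the start, so the end class holds no calls near a known start. Isolated CpGs within 1 kb of a gene end, where transcription stops, went from 0, 0.769 and 1.16% at 0 h to 8.64 and 7.93% at 6 h and 25.3, 27.4 and 33.1% at 12 h. Those within 1 kb of a start went from 0.234, 1.10 and 0.643% to 4.82 and 6.18% and then 21.5, 22.9 and 25.0%. The end stood above the start by 3.73, 4.50 and 8.11 points in the 12 h libraries A, B and C and by 3.82 and 1.76 points at 6 h, against -0.234, -0.330 and 0.520 points at 0 h (12 h against 0 h, exact permutation p = 0.1). The change in deviation was 3.70 ± 0.713 points for ends (limma adjusted p = 0.000400) and -1.08 ± 0.694 for starts (limma adjusted p = 0.184). This split was planned for the case that a table with strand was given.

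By finer distance the isolated level was alike within 1 kb of starts and higher from 1 kb on. It was 22.7% ± 1.69 (SD, n = 3, from 689 calls at 12 h) within 0.25 kb of a start, 23.1% ± 1.36 at 0.25 to 0.5 kb, 23.3% ± 3.31 at 0.5 to 1 kb, 26.6% ± 3.37 at 1 to 2 kb and 26.4% ± 2.42 at 5 to 20 kb. Other-read calls went from 5.59% ± 1.41 within 0.25 kb through 12.4% ± 0.583 at 0.5 to 1 kb to 26.9% ± 2.18 at 5 to 20 kb. Around gene ends both kinds stayed high, with 30.7% ± 7.13 isolated and 26.7% ± 0.950 other-read within 0.25 kb. The isolated value there rests on 846 calls and on library C at 38.9%, with A at 25.7 and B at 27.6%.

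**Figure D4:**
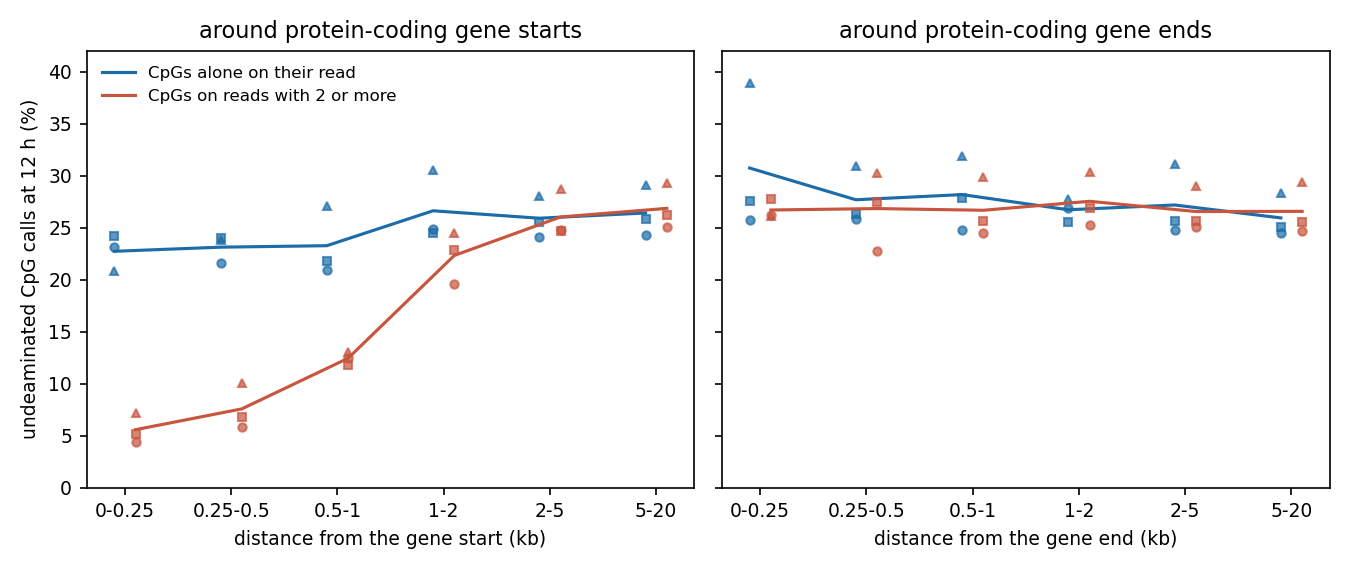
Undeaminated CpG calls at 12 h (percent, vertical axis) by distance (kb) from the start (left) and the end (right) of protein-coding genes with known strand; symbols are libraries A (circle), B (square) and C (triangle) and lines join means. Near starts isolated calls stay at 22.7 to 23.3% where other-read calls are at 5.59 to 12.4%, and within 1 kb of ends isolated calls are at 27.7 to 30.7% and other-read calls at 26.7 to 26.8%.

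Setting both kinds of read against each other class by class gave the largest differences. Within 1 kb of gene starts isolated CpGs stood above other-read CpGs by 14.7, 15.5 and 15.7 points in the 12 h libraries, by 1.87 and 3.61 points at 6 h and by -0.905, 0.165 and -0.510 points at 0 h. The change from 0 h to 12 h was 15.8 ± 0.931 points (SE, limma adjusted p = 1.66e-32, but exact permutation p = 0.1 on the library differences, the smallest possible). Within 1 kb of gene ends it was 1.62 ± 0.965 points and did not pass (limma adjusted p = 0.145). Splitting starts from ends in this comparison of the kinds of read was an alternative added after seeing the data. Over the 4 compartments and 18 distance classes, which share calls so that their p-values are too small, 11 of 22 rows passed (50.0%), 4 with a larger and 7 with a smaller rise in isolated CpGs. Larger were the classes within 1 kb of a gene end of either kind, inside (15.9 ± 0.884 points, limma adjusted p = 2.58e-33) and outside genes (12.4 ± 0.934, adjusted p = 1.55e-23), the inside class at 1 to 2 kb (4.29 ± 0.858, adjusted p = 9.82e-06) and protein-coding bodies as a whole (2.33 ± 0.180, adjusted p = 5.23e-23). Smaller were 7 classes at 20 kb or more from a gene end, led by the outside class beyond 500 kb, where isolated CpGs reached 21.4% ± 3.23 and other-read CpGs 25.0% ± 3.29 (SD, n = 3; -4.00 ± 0.631 points, limma adjusted p = 2.82e-08). On the log-odds scale 1 of 22 passed, the inside class within 1 kb (1.23, limma adjusted p = 0.00949), and the quasi-binomial model gave 0 with adjusted p = 0.0585 for it and for the outside class within 1 kb. Of the 7 classes with a smaller rise, 5 did not pass without 1 or more libraries. These were the outside classes at 20 to 50 kb (without 12 h B, -0.643 points) and 50 to 100 kb (without 0 h C, 12 h A or 12 h B, -0.532 points in the last case), and the inside classes at 50 to 100 kb (without 12 h A, -0.869 points, or C), 200 to 500 kb (without 12 h A or C) and 100 to 200 kb (without 0 h B or C or any 12 h library). Their limma adjusted p then ran from 0.0510 to 0.510. At 6 h 4 of 22 rows passed (18.2%), led by the inside class within 1 kb (5.05 ± 0.899 points, limma adjusted p = 3.21e-06), and for 12 h against 6 h 5 of 22 (22.7%). With 12 h library A left out 7 of the 22 rows passed. Without windows of stacked calls 14 of 22 passed, and the outside class at 100 to 200 kb went from 0.337 points without a call to a smaller rise in isolated CpGs (-1.97 points, limma adjusted p = 0.000308).

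Gene bodies ranked differently in the kinds of read. Isolated CpGs in protein-coding bodies were at 26.2% ± 2.40 (SD, n = 3) and intergenic ones at 24.0% ± 2.59 at 12 h, while other-read CpGs were at 23.9% ± 2.24 and 24.1% ± 2.33. Of the 498500 other-read calls in gene bodies at 12 h, 85898 lay inside within 1 kb of a gene end, where their level was 10.4% ± 1.52.

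The kinds of read also differed in CpG density, which the rule of 1 call per read favours by itself. The RefSeq promoter windows, from 250 bases before to 50 after a start, numbered 31365 on these chromosomes. Calls fell in them 52730 times, counted once for each window, and 99.5% of these lay on a CpG of the window. This checks positions and build. Isolated calls on a window CpG numbered 1081, with a median of 3 CpGs per window, and other-read calls 44769, with a median of 25. Windows with at most 5 CpGs, 43.2% of all windows, held 74.6% of isolated and 4.93% of other-read calls. Searching CG on 1 strand suffices, since it is its own reverse complement. Within windows of like density the kinds of read differed less at 12 h than within 1 kb of gene starts. Isolated calls were lower up to 5 CpGs, higher from 6 to 20 and lower over 20. With 1 or 2 CpGs isolated calls stood at 24.8% (58 of 234 calls over 3 libraries, 95% Wilson interval 19.7 to 30.7%) and other-read calls at 31.1% (51 of 164, 24.5 to 38.5%). With 3 to 5 CpGs they stood at 26.9% (71 of 264, 21.9 to 32.5%) and 28.8% (354 of 1230, 26.3 to 31.4%). With 6 to 10 CpGs the values were 25.9% (30 of 116, 18.8 to 34.5%) and 20.4% (485 of 2373, 18.9 to 22.1%). With 11 to 20 CpGs isolated calls were at 7.50% (3 of 40, 2.58 to 19.9%), with 3 of 15 in library B, 0 of 20 in A and 0 of 5 in C, beside 5.91% of 5500 other-read calls. Over 20 CpGs, 0 of 12 isolated calls were undeaminated, with an upper Wilson limit of 24.2%, beside 2.79% of 17015. In each of these 5 classes the intervals of the kinds of read overlap. The intervals cover counting error only, and those of isolated calls are wide, so their overlap does not show that levels were alike. They also treat calls as independent. Other-read calls can share a read, so their intervals may be too narrow. Whether density accounts for the difference near starts was not tested.

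**Figure D5:**
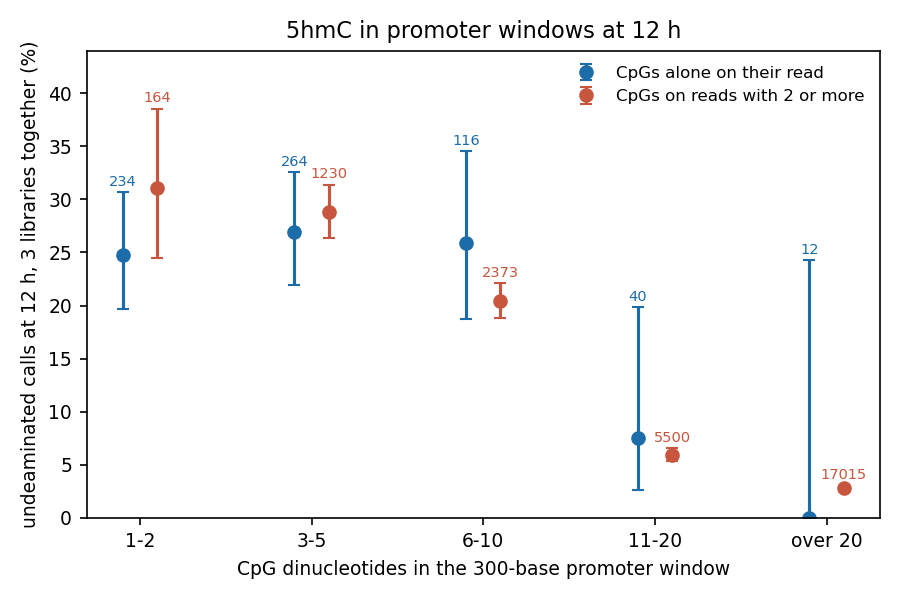
Undeaminated calls at 12 h (percent of calls summed over the 3 libraries, vertical axis) by the number of CpGs in the promoter window; bars are 95% Wilson intervals and the number above each is its count of calls. Other-read calls fall from 31.1% in windows with 1 or 2 CpGs to 2.79% over 20 CpGs. Isolated calls are at 24.8 to 26.9% up to 10 CpGs and too few beyond, with an upper limit of 24.2% over 20 CpGs, and the intervals of both kinds overlap in each class. Other-read calls can share a read, so their intervals may be too narrow.

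The base before the CpG also varied with the level in windows with at most 5 CpGs. Isolated calls at 12 h were undeaminated in 34.6% after A (47 of 136, Wilson interval 27.1 to 42.9%), 28.4% after C (42 of 148), 22.8% after G (21 of 92) and 15.8% after T (19 of 120, 10.4 to 23.4%), read on the strand of the call. A stood above T in library A (35.2 against 10.2%) and B (36.8 against 16.7%) but not in C (28.0 against 31.6%). In other-read calls of the same windows A was at 33.6% (130 of 387), C at 25.3% (105 of 415), G at 34.1% (100 of 293) and T at 22.3% (65 of 291). In the sums T was the lowest base in both kinds of read, but the order varied between libraries: in C the isolated level was highest after T, and in other-read calls T was lowest in A alone. These are descriptions of few calls and were not tested.

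At CpGs where both kinds of read met, isolated calls were the lower ones. In the 12 h libraries 2806 positions were called both alone and in company, and isolated calls there stood at 23.6, 23.0 and 29.9% in A, B and C (719 of 2939 in all) and other-read calls at 27.1, 25.6 and 32.3% (1351 of 4903). The difference had the same sign in all 3 libraries and was not tested. Of the isolated calls at these positions 2.08% lay within 1 kb of a gene start.

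The mean 12 h level ran from 24.0% ± 2.39 (SD, n = 3) on chromosome 3 to 26.0% ± 2.02 on chromosome 11. Only chromosome 1 passed, 1 of 19 (5.26%), with 22.6, 22.9 and 26.8% at 12 h (-1.07 ± 0.290 points, limma adjusted p = 0.00750). In limma it did not pass without 0 h library A (limma adjusted p = 0.0828), without 12 h library B (limma adjusted p = 0.316), without weights (limma adjusted p = 0.281) or on the log-odds scale (limma adjusted p = 0.732). Other scales called other chromosomes: chromosome 4 passed on the log-odds scale (0.475, limma adjusted p = 0.0416) and chromosome 18 in the quasi-binomial model, at -0.429. Of 248 windows of 10 Mb 0 passed limma (0.0%), 28 at an unadjusted p under 0.05, with deviations from -6.97 to 4.51 points. On the log-odds scale 0 passed as well, 6 unadjusted, and the quasi-binomial model gave 0, 11 unadjusted. In simulations at these depths a difference of 3 points was called in 20.9% of windows, 5 points in 70.5% and 10 points in 99.8%.

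Single genes hold few isolated CpGs, so those with enough calls were giants. Only 16 genes or receptor loci had at least 5 isolated calls in every library and 20 in every 12 h library, the shortest 735.7 kb long. Of these 0 passed limma (0.0%) and 1 had an unadjusted p under 0.05; the log-odds scale gave 0, 2 unadjusted, and the quasi-binomial model 0 of 9. Deviations were positive in 3 and negative in 13, with a median of -3.18 points. Dlg2, a scaffold protein of synapses, had the lowest level, 15.9, 15.0 and 4.76% at 12 h in A, B and C (17 of 125 calls), from 1 of 36 at 0 h (-11.8 ± 4.67 points, limma adjusted p = 0.397). Alk, a receptor tyrosine kinase, stood at 18.5, 24.3 and 0% (14 of 84, -11.6 ± 6.47 points, limma adjusted p = 0.495). Csmd1, a large complement-control membrane protein, had 21 of 113 undeaminated, and the immunoglobulin heavy chain locus Igh 34 of 189.

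Smaller negative values were those of Cntnap2 and Rbfox1, a neuronal adhesion molecule and a splicing factor, with 27 of 138 and 33 of 155 at 12 h, Cdh13 and Ctnna3, a cadherin and a catenin, with 38 of 182 and 26 of 115, Ptprd, a receptor phosphatase, with 25 of 101, the light chain locus Igk with 42 of 186, and Sdk1, Cntnap5a and Grid1, the last of which encodes a glutamate receptor subunit, with deviations from -1.39 to -1.28 points. Anks1b, with 28.0, 27.5 and 30.4% (25 of 88), the ion channel gene Asic2, with 23.0, 27.9 and 26.7% (39 of 152), and the T cell receptor locus Tcra, with 28.3, 24.5 and 20.8% (31 of 123), had positive values of 2.02 to 2.40 points. These loci ran from 11.9% ± 6.19 in Dlg2 to 28.6% ± 1.57 in Anks1b (SD, n = 3), and none differed from its library past the threshold.

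With a lower minimum, chosen after seeing the data (2 calls in every library and 10 in every 12 h library), 195 genes were tested and 1 passed (0.513%). Utrn, the gene of the dystrophin relative utrophin on chromosome 10, had 0 of 24 isolated calls undeaminated at 0 h, 1 of 15 at 6 h and 38.5, 41.7 and 41.7% at 12 h (25 of 62; 17.0 ± 2.69 points, limma adjusted p = 0.0416). Its 12 h libraries lay close together and above the library levels of 23.2 to 27.9%. Among those that did not pass, Ksr2, a kinase scaffold, had 22 of 60 at 12 h, and on the low side Robo2, an axon guidance receptor, had 9 of 88 (each limma adjusted p = 0.0535). Of the 195 genes, 83 had positive and 112 negative deviations, with a median of -1.16 points.

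The gene lists were described by their summed isolated calls in gene bodies, and were chosen with earlier results of these data known. Of 38 very long genes of neuronal type all had isolated calls, 3790 at 12 h, and the sum stood at 21.8, 22.5 and 22.9% in A, B and C from 0.778, 1.70 and 2.45% at 0 h (-2.33 ± 0.931 points, limma adjusted p = 0.176). In it the 3 with the most isolated calls over the 8 libraries were Cdh13, Rbfox1 and Auts2, the last with 34 of 129 at 12 h. Pluripotency genes, with isolated calls in 14 of 21, had 29 of 94 at 12 h (30.3, 31.9 and 28.6%) and 1 of 26 at 0 h (4.66 ± 7.06 points, limma adjusted p = 0.673). Among them the orphan nuclear receptor genes Esrrb and Nr5a2 had 7 of 21 and 8 of 24, and Lifr, a cytokine receptor, 7 of 16.

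Imprinted genes (24 of 31 with isolated calls) had 0 of 75 at 0 h, 3 of 18 and 7 of 46 at 6 h and 59 of 242 at 12 h. Kcnq1, a potassium channel gene, held 16 of 59 at 12 h, Rasgrf1 4 of 29 and Snrpn 4 of 28. Germline genes (18 of 20) had 0 of 40 at 0 h, 0 of 24 at 6 h (a count of 0 allows up to 12.5%) and 20 of 94 at 12 h; Tex14, which acts in the intercellular bridges of germ cells, had 1 of 20 and the piRNA pathway genes Tdrd9 and Mov10l1 3 of 10 and 2 of 9. Of the 4 lists tested 0 passed at 12 h (0.0%), with 1 unadjusted in limma, 2 on the log-odds scale and 0 by the quasi-binomial model, which could be fitted for 2 lists. At 6 h 2 of 4 passed (50.0%), imprinted genes above (10.3 ± 3.00 points) and germline genes below their library (-5.33 ± 1.78 points, both limma adjusted p = 0.0453), and 0 on the log-odds scale. Those 6 h values rest on 64 and 24 calls.

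The remaining lists were too thinly covered for a test. DNA methylation genes had 0 of 28 at 0 h and 23 of 82 at 12 h, with Dnmt3a, a de novo methyltransferase, at 5 of 13, and Tet3 and Tet1 at 2 of 8 and 2 of 9. Since the reads of the transgene and of the Tet3 locus may share sequence, the source of the Tet3 calls cannot be told apart here. Early lineage genes had 2 of 20 and 13 of 53, with the liver and endoderm factors Hnf4a at 3 of 17 and Gata4 at 0 of 10, and the trophoblast factor Elf5 at 0 of 6. Housekeeping genes, short and CpG-rich at their starts, had isolated calls in 7 of 16 members and 5 of 23 undeaminated at 12 h, with Ywhaz at 1 of 8, Polr2a at 1 of 6 and Sdha at 0 of 3.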

How the data were processed

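ACE-seq libraries of 10 ng DNA were read on 3 sequencing runs. The authors deposited 1 line per CpG cytosine and read with a call letter (Z undeaminated, z deaminated), made with Bismark 0.22.3 per the file headers; GRCm38 and Trim Galore stand in the submitters' processing notes. Settings for trimming and duplicates: not given in the sources used here. Read lengths are not in these files.

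Calls on chromosomes 1 to 19 that were alone on their read were placed in RefSeq genes (GRCm38.p6), a body counting as protein-coding before lncRNA before other. Levels are undeaminated calls over all calls. Deviations from the library's isolated level were fitted with limma 3.58.1 (R 4.3.3), weighted by calls, over 8 libraries, with Benjamini-Hochberg adjustment within each family of classes and a threshold of 0.05. Moderated variances treat classes as independent, but deviations within a library share its level, so their limma p-values may be too small. Single values were tested by exact permutation. The log-odds scale added 0.5 to each count. Tables used Python 3.11.15, pandas 2.3.3 and scipy 1.17.1, figures matplotlib 3.10.9. Simulations gave differences to a share of the classes, with counting error only and the library level held fixed. Among classes given no difference in these runs, 10% of compartments, 2.08% of distance classes and 1.25% of length classes were called. Among those given 2 points it was 92.3, 78.0 and 95.7%.

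Members, lists and tests were chosen with earlier results of these data known. Genes named are the 10 with the largest deviation on each side among those tested, and the 3 members of each list with the most isolated calls. Classes needed 20 calls in every library, genes 5 and 20 in every 12 h library, lists 5.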

Additional observations from a re-analysis of the deposited data

Results flagged for a closer look

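Chromosome X was outside the comparisons above and showed the same kind of signal. Its isolated CpGs stood at 22.3, 23.0 and 27.0% in the 12 h libraries A, B and C (1189 of 5074 calls), a mean of 24.1% ± 2.54 (SD, n = 3). In untreated libraries they were at 1.45, 1.19 and 1.14%, and at 6 h at 2.99 and 7.27% (10 of 334 and 86 of 1183 calls). Every 12 h library lay above every untreated one.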

How the results depend on the processing

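Of 31 called class results in points, all 31 kept direction and call with 1 call per position and letter, without windows of stacked calls and with the replicate block, 23 of 31 without weights and 19 of 31 in all 8 leave-one-out fits. Within runs 52, 53 and 54, an alternative added after seeing the data and fitted for compartments, distance and gene length, 2 of 16, 12 of 19 and 14 of 19 kept it; 3 classes had under 20 calls in a library of run 52. On the log-odds scale 1 of 31 kept it and in the quasi-binomial model 0 of 31. Fixing 1 kind of gene body kept 3 of 3, ends of genes of 5 kb or more 7 of 9, starts and ends apart 20 of 20 and median centring 15 of 20. For isolated against other-read CpGs the fit with starts and ends apart was added later. The 12 h libraries alone on the log-odds scale, also added later, kept 27 of 30. In 129 cases a value without a call changed sign.

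Counts of calls for 12 h against 0 h moved as follows. Isolated against other-read CpGs had 11 calls, 7 without weights, 1 on the log-odds scale, 0 in the quasi-binomial model, 12 with the replicate block and 7 to 12 leaving out 1 library. Compartments had 3, distance 9 and gene length 7, each 0 on the log-odds scale and in the quasi-binomial model; distance and gene length had 0 within run 52, gene length 3 within run 53 and 4 with median centring. Chromosomes had 1, 0 without weights and 0 to 1 leaving out 1 library. Windows had 0, 2 with the replicate block and 0 to 1 leaving out 1 library, gene lists 0 and 0 to 1, and genes 0 and, at the lower minimum, 1. Doubling the minimum left no gene to test.

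Directions turned in these cases, and the cause was not tested. On the log-odds scale and in the quasi-binomial model these were other gene bodies (0.128 and 0.236), the inside class at 2 to 5 kb (-0.100 and -0.0865), the outside class at 100 to 200 kb (0.0533 and 0.0608) and genes under 20 kb (-0.0645 and -0.0413), of 100 to 200 kb (-0.0917 and -0.0781) and of 500 to 1000 kb (0.135 and 0.180). In the quasi-binomial model alone they were the inside class at 200 to 500 kb (0.0770) and genes of 20 to 50 kb (-0.00410). With median centring they were genes under 20 kb (-0.0233) and of 200 to 500 kb (-0.746). Within run 52 it was the outside class at 20 to 50 kb (0.605), and without stacked windows the difference of isolated from other-read CpGs outside genes at 100 to 200 kb (-1.97, limma adjusted p = 0.000308), which then passed.

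The level difference of 12 h from 0 h was 22.5 to 24.8 points leaving out 1 library and 23.9 with the replicate block, that of 6 h from 0 h 5.12 to 5.45 and 5.34, and that of 12 h from 6 h 17.2 to 19.5 and 17.2; r over time was 0.946 to 0.973. Deviations of the 7 same-letter pairs of libraries correlated at -0.0399 to 0.0728, other pairs at -0.131 to 0.124. With only 2 libraries at 6 h, the values of 6 h A and B against a 0 h or 12 h library mirror each other. Whether the letters mark shared cultures or batches cannot be told from these values. Depth limits single genes and promoters.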

Other observations

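On chromosome Y isolated calls were undeaminated in 36 of 181, 42 of 179 and 16 of 70 calls in the 12 h libraries A, B and C (22.1% ± 1.91, SD, n = 3), and in 3 of 116 calls over the untreated libraries. On the mitochondrial genome undeaminated calls were 3 of 151 isolated ones in the 12 h libraries. The 6 h libraries had 0 of 33, which allows up to 9.09%, and the untreated ones 0 of 41, which allows up to 7.32%. No test was made on either.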
